A study of Mus musculus with 24 samples.

Results

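The costimulatory receptors of CD4 T cells were followed through 8 genes, Cd28, Icos, Cd27, Tnfrsf4, Tnfrsf9, Tnfrsf18, Cd2 and Cd226. Their members are all probes that carry one of these symbols in the deposited table, which were 16 of the 25697 probes of the array. Of these, 15 were detected on at least 1 of the 24 arrays, among 14246 probes detected on at least 1 array in all, which stand for 10418 genes. The remaining one, the Cd226 probe ILMN_3150302, was detected on 0 arrays and was not tested. All 8 genes kept at least 1 probe, and a gene with several is represented by its brightest one, with the others given where they differ. Levels are log2 of background-corrected, quantile-normalized intensity, and a difference is the first group minus the second on that scale. Levels of different probes are not compared with each other, since each probe has its own brightness.

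A T cell that meets its antigen needs a second signal besides the one through the T cell receptor. CD28 and ICOS, receptors of the immunoglobulin superfamily, give that signal on binding CD80 or CD86 and ICOS ligand, mainly through phosphoinositide 3-kinase. CD27, OX40 (Tnfrsf4), 4-1BB (Tnfrsf9) and GITR (Tnfrsf18) are receptors of the tumor necrosis factor (TNF) family, which bind ligands of the TNF family and signal through TRAF adaptors to NF-kB, promoting survival and division. CD2, which binds CD48, and CD226 (DNAM-1), which binds the nectin family proteins CD155 and CD112, are adhesion receptors. CD28 and CD27 are carried by resting Naïve cells, whereas OX40 and 4-1BB are known as receptors that appear on activated T cells.

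CD4+ T cells came from WT mice and from mice with a T cell deletion of BAF180 (Pbrm1), a subunit of the PBAF chromatin remodeling complex, in 4 states with 3 arrays per genotype, lettered A to C. The resting Naïve state was of CD4+CD62L+ cells purified to 95% from spleen and lymph node of mice aged 4 to 6 weeks, and stimulated Naïve cells had been on plates coated with anti-CD3 (1 µg/ml) and anti-CD28 (2 µg/ml) for 24 h. Th2 cells came from such Naïve cells through culture on those antibodies with 10 ng/ml IL-4, 10 µg/ml anti-IFN-γ and 100 U/ml IL-2, and stimulated Th2 cells were then given PMA (50 ng/ml) and ionomycin (500 ng/ml) for 1.5 h. The stimulated Naïve and all Th2 cells had thus met an antibody against CD28, the product of a gene studied here, and the stimuli of Naïve and Th2 cells differed in agent and length. BAF180-deficient mice carried a floxed BAF180 exon and CD4-Cre, which acts late in thymus development and also in CD8 lineage cells. The labels call the strain Balb/c and the study's methods name a mixed background instead, and whether WT mice carried CD4-Cre is not stated in the sources used here.

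On each array 8047 to 10689 probes were detected, and replicate arrays of a group correlated across probes with an r of 0.949 to 0.989. Pbrm1 was lower in BAF180-deficient cells in 4 of 4 states, with differences of -1.01 and -1.63 in resting and stimulated Naïve and of -1.86 and -1.42 in resting and stimulated Th2 cells, and its arrays did not overlap between genotypes in any of them. Pbrm1 remained detected on all arrays, and whether its probe lies in the deleted exon was not checked. The 6 T cell markers (Cd3e, Cd3d, Cd3g, Cd4, Lck and Cd5) were detected on all arrays, and the 6 Th2 markers (Gata3, Il4, Il5, Il13, Il1rl1 and Ccr4) summed to an intensity of 18800 to 21100 in stimulated Th2 cells against 391 to 560 in resting Naïve cells. Resting Naïve preparations also held transcripts of other cells: the 5 detected of 7 myeloid markers summed to an intensity of 1810 to 5000 there and to 103 to 233 in the other states, where Lyz2 and Cd14 were detected on 0 arrays. Bulk RNA cannot tell apart fewer cells of a type from less RNA per cell, for the receptors as for these markers.

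Most members were called in at least 1 comparison between cell states, and none between genotypes. Between the highest and lowest of the 8 group means Tnfrsf9 spanned 4.57, Tnfrsf4 4.22, Icos 2.28, Cd226 2.12, Tnfrsf18 1.91 and Cd27 1.61, against a median of 0.88 over all tested probes. Cd2 (0.86) and Cd28 (0.70) spanned less than that median. The TNF family receptors Tnfrsf4 and Tnfrsf9 were highest in stimulated Th2 cells and lowest in resting Naïve cells, Tnfrsf18 and Icos were highest in resting Th2 cells, and Cd226 was highest in resting Naïve cells, in both genotypes.

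**Figure D1:**
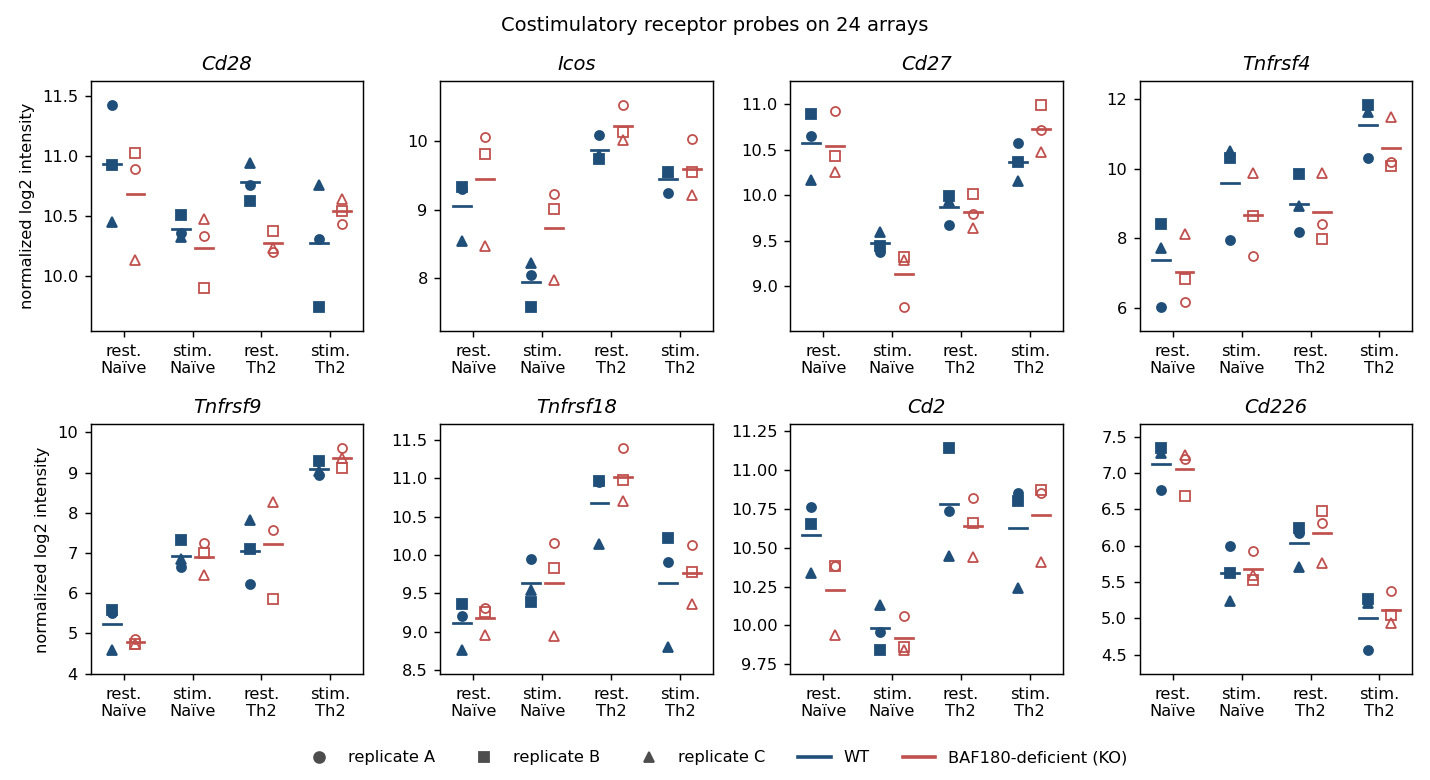
Normalized log2 intensity of the representative probe of each costimulatory receptor gene (vertical axis, a separate scale for each gene) in the 4 cell states (horizontal axis). Filled blue symbols are WT arrays, open red symbols BAF180-deficient (KO) arrays, shapes give the replicate letter and bars the mean of 3 arrays. Tnfrsf9 goes from about the detection limit in resting Naïve cells to means of 9.10 (WT) and 9.35 (KO) in stimulated Th2 cells, while the group means of Cd28 span 0.70 and its 24 arrays lie between 9.74 and 11.42.

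The state comparisons, 3 in each genotype, were all tested with limma at a Benjamini-Hochberg adjusted p below 0.05, and they share arrays: the resting Naïve arrays serve in the first and the third, and the resting Th2 arrays in the second and the third. After 24 h of anti-CD3 and anti-CD28, 6 of the 8 genes differed in WT cells, with Tnfrsf4 and Tnfrsf9 higher and Icos, Cd27, Cd2 and Cd226 lower, where 23.6% of all probes were called higher and 20% lower. In BAF180-deficient cells 3 differed, Tnfrsf9 higher and Cd27 and Cd226 lower, against 22.3% and 19.3% of all probes. The median difference of the members was -0.57 in WT and -0.38 in BAF180-deficient cells, beside 0.01 and 0.03 over all probes. Single arrays moved these counts: the WT count was 3 without resting Naïve WT replicate A or stimulated Naïve WT replicate B, and the other was 6 without resting Naïve KO replicate C.

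After 1.5 h of PMA and ionomycin, 4 of the 8 genes differed in WT Th2 cells, Tnfrsf4 and Tnfrsf9 higher and Tnfrsf18 and Cd226 lower, with 13% of all probes called higher and 14.3% lower. In BAF180-deficient Th2 cells 4 differed as well, Tnfrsf9 and Cd27 higher and Tnfrsf18 and Cd226 lower, with 12% and 13.8% of all probes. Between resting Th2 and resting Naïve cells Tnfrsf9 and Tnfrsf18 were higher and Cd27 and Cd226 lower in each genotype, so that 4 of 8 were called, against 18.4% of probes higher and 16% lower in WT and 18.8% and 15.9% in BAF180-deficient cells. The members' medians were -0.29 and 0.17 in the PMA and ionomycin comparison and 0.51 and 0.59 in that of resting Th2 with resting Naïve cells, for WT and BAF180-deficient cells in that order. The WT Th2 count was 2 without resting Th2 WT replicate A. With the replicate letter as a block, 7 members in place of 4 were called between resting Th2 and resting Naïve BAF180-deficient cells, and 6 in WT cells.

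The 4 criteria of the study's methods, given with the genotype comparisons, add a minimum size to the difference, which was 1.04 to 1.41 in these comparisons, and allow a higher FDR. By them Tnfrsf4 and Tnfrsf9 were higher in all 6 comparisons. Cd226 was called in 2 of 6, WT stimulated Naïve and BAF180-deficient stimulated Th2 cells, and lost its other 4 calls. Cd27 kept that of BAF180-deficient stimulated Naïve cells and lost its other 4. The calls of Icos and Cd2 in WT stimulated Naïve and of Tnfrsf18 in WT stimulated Th2 cells were lost as well, and Tnfrsf18 kept its other 3.

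**Figure D2:**
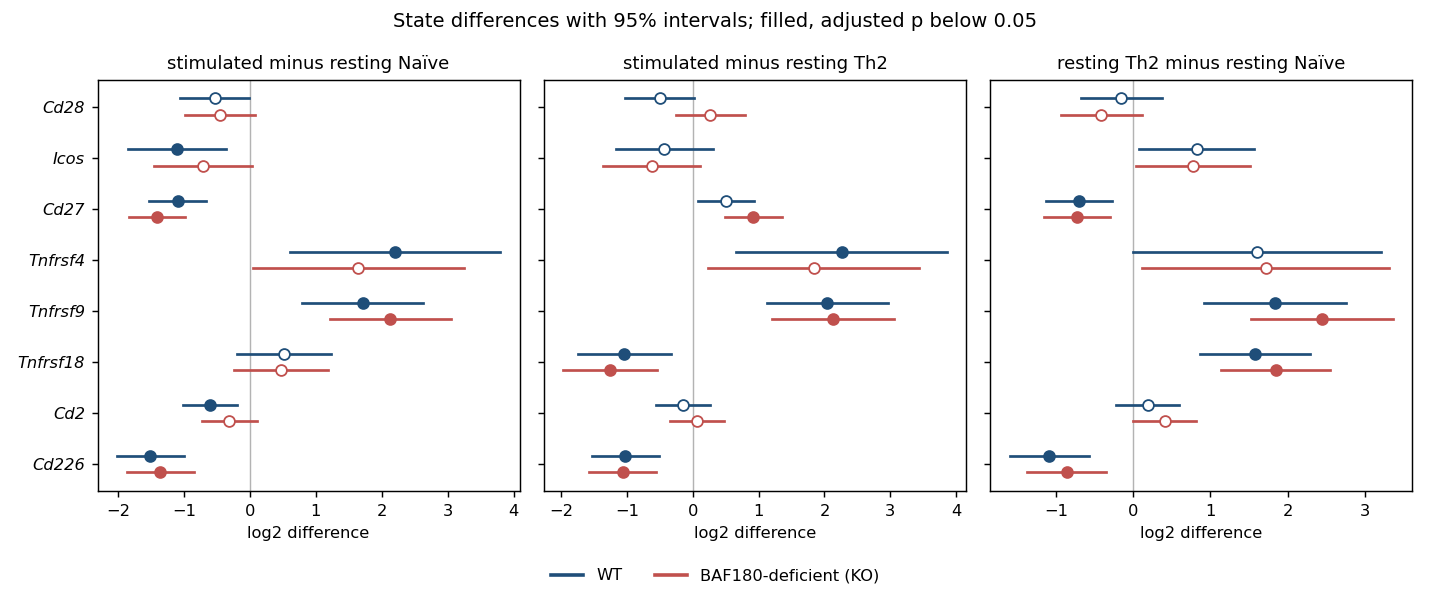
Log2 differences (horizontal axes) of each receptor gene (vertical axis) between cell states, stimulated minus resting Naïve, stimulated minus resting Th2 and resting Th2 minus resting Naïve cells, with 95% intervals from limma. Blue is WT and red BAF180-deficient (KO), and filled points have an adjusted p below 0.05. The intervals of Tnfrsf9 lie above 0 in all panels, those of Cd226 below 0, and those of Tnfrsf4 are the widest.

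Tnfrsf9 encodes 4-1BB, whose ligand is Tnfsf9 and which signals through TRAF1 and TRAF2. In WT cells its level was 5.50, 5.57 and 4.58 on the resting Naïve arrays, in the order of the letters as in all lists of 3 values, and 6.64, 7.31 and 6.84 on the stimulated Naïve arrays. In WT Th2 cells it was 6.22, 7.11 and 7.83 at rest and 8.94, 9.29 and 9.05 after PMA and ionomycin. The arrays did not overlap between rest and stimulation in either cell type, and resting Th2 and stimulated Naïve cells overlapped with each other. Tnfrsf9 rose by 1.71 (SE 0.44, adjusted p 0.00336) in stimulated Naïve cells, by 2.04 (adjusted p 0.00136) in stimulated Th2 cells, and was 1.84 (adjusted p 0.00283) higher in resting Th2 than in resting Naïve cells.

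In BAF180-deficient cells Tnfrsf9 read 4.87, 4.73 and 4.74 in resting Naïve, 7.25, 7.01 and 6.46 in stimulated Naïve, 7.57, 5.85 and 8.26 in resting Th2 and 9.60, 9.11 and 9.35 in stimulated Th2 cells. The resting Th2 arrays were the most spread, with replicate B below A and C. The same 3 differences were 2.13, 2.13 and 2.45, with adjusted p of 0.000521, 0.00106 and 0.000213. The first probe was detected on only 3 of the 6 resting Naïve arrays, and a second Tnfrsf9 probe, ILMN_3103746, on 0 of them. By that second probe Tnfrsf9 was at least 3.07-fold higher in WT and at least 2.82-fold higher in BAF180-deficient stimulated Naïve cells, and at least 2.01-fold and 2.35-fold higher in resting Th2 cells, measured against the lowest detected signal of each array.

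Tnfrsf4 encodes OX40, a receptor that sustains effector and memory CD4 T cells through TRAF2, TRAF3 and TRAF5. It read 6.03, 8.41 and 7.73 in WT resting Naïve and 7.97, 10.30 and 10.51 in stimulated Naïve cells. WT resting Th2 cells gave 8.19, 9.86 and 8.94, and stimulated Th2 cells 10.30, 11.83 and 11.63. Replicate A was the lowest in all 4 WT states. The ranges of resting and stimulated WT Naïve cells overlapped, since stimulated replicate A (7.97) lay below resting replicate B (8.41), and those of WT Th2 cells did not. Tnfrsf4 rose by 2.20 (SE 0.77, adjusted p 0.0249) in WT stimulated Naïve and by 2.26 (adjusted p 0.0326) in WT stimulated Th2 cells.

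In BAF180-deficient Naïve cells Tnfrsf4 was at 6.16, 6.83 and 8.12 at rest and at 7.50, 8.64 and 9.88 after stimulation. The Th2 cells gave 8.41, 7.98 and 9.87 at rest and 10.19, 10.07 and 11.50 after stimulation. Here replicate C was the highest in all 4 states. The differences were 1.64 and 1.83 on stimulation of Naïve and Th2 cells, with adjusted p of 0.0956 and 0.0893. Resting Th2 minus resting Naïve cells gave 1.61 in WT and 1.72 in BAF180-deficient cells, with adjusted p of 0.116 and 0.0904. None of these 4 reached an adjusted p below 0.05 with all arrays and no block, while all 4 met the 4 criteria, and only stimulated and resting Th2 cells had ranges that did not overlap.

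The spread of Tnfrsf4 between replicates was exceptional: its residual SD of 1.06 exceeded that of 99.8% of the tested probes, whose median was 0.24. The spread followed the replicate letter within each genotype. WT replicate A lay below its group mean in 4 of 4 states, with deviations of -1.62 to -0.81, and WT replicate B above it in 4 of 4, while BAF180-deficient replicate C lay above its group mean in 4 of 4, with deviations of 0.91 to 1.20, and A and B below it. Within each letter the change was nevertheless steady. On stimulation of Naïve cells it was 1.94, 1.89 and 2.78 for A, B and C in WT and 1.35, 1.81 and 1.76 in BAF180-deficient cells, and all 18 such differences of the 3 comparisons were above 0.

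With the replicate letter as a block, the SE of Tnfrsf4 was 0.47 and the 4 differences that had missed the threshold passed it, with adjusted p of 0.00777 and 0.00586 for stimulated Naïve and stimulated Th2 BAF180-deficient cells and 0.0112 (WT) and 0.00723 (BAF180-deficient) for resting Th2 against resting Naïve cells. That block takes 1 letter effect for both genotypes, whereas replicate B of Tnfrsf4 lay above its group mean in WT and below it in BAF180-deficient cells. A block for the letter within each genotype, chosen after seeing the data, gave an SE of 0.29 and adjusted p between 0.000113 and 0.000293 for the same 4 differences. Without the block, the WT calls depended on single arrays: the adjusted p for stimulated Naïve cells was 0.151, 0.0993 and 0.12 without resting Naïve replicate A, stimulated Naïve replicate B or stimulated Naïve replicate C, and that for stimulated Th2 cells lay between 0.0751 and 0.135 without stimulated Th2 replicate B or C or resting Th2 replicate A or C. Without resting Naïve replicate C or stimulated Naïve replicate A the stimulated Naïve difference of BAF180-deficient cells passed, with an adjusted p of 0.0438 and 0.0363, without resting Th2 replicate C that of stimulated Th2 cells did (0.0416), and without resting Naïve replicate C that of resting Th2 cells did (0.0434).

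**Figure D3:**
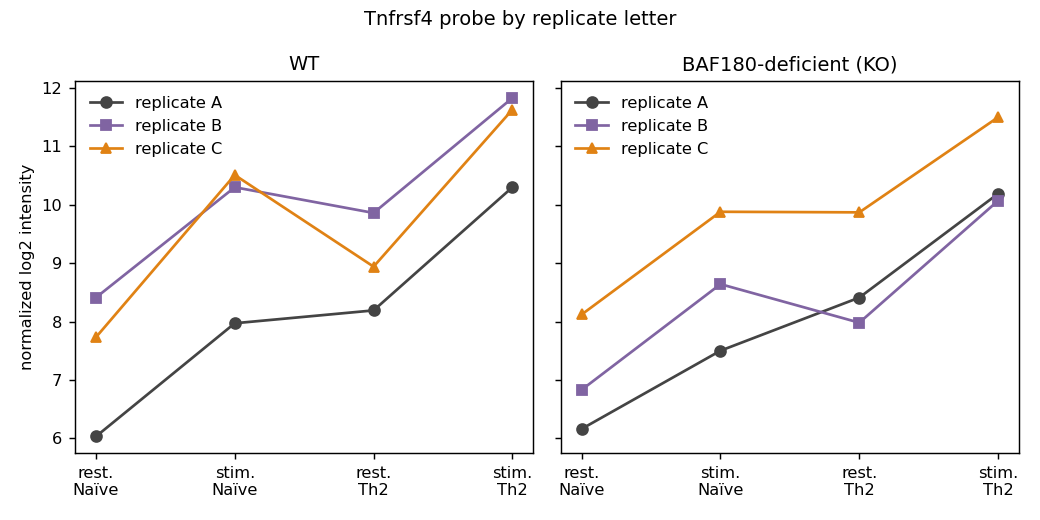
Normalized log2 intensity of the Tnfrsf4 probe (vertical axis) in the 4 cell states (horizontal axis), with the arrays of one replicate letter joined by a line, in WT (left) and BAF180-deficient cells (right). Grey circles are replicate A, purple squares B and orange triangles C. WT replicate A lies below the other WT replicates and BAF180-deficient replicate C above the others in every state.

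The sequence before the gene start is shown for Tnfrsf4, Tnfrsf9 and Tnfrsf18 because Tnfrsf4 and Tnfrsf9 rose in both stimulations of WT cells, while Tnfrsf18, whose start lies 12627 bases downstream of that of Tnfrsf4, fell in stimulated Th2 cells. The windows are the 250 bases before each RefSeq start on GRCm38.p6, + strand. In the reference, windows were found for 4 genes, these and Cd27, and Cd226 was left out of the search. Capitals mark each match, on either strand, to TGANTCA (AP-1), to GGAAA (the NFAT core) or to the NF-kB consensus. Tnfrsf9 has 2 annotated starts in this reference.

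Tnfrsf9, chr4:150919905-150920154: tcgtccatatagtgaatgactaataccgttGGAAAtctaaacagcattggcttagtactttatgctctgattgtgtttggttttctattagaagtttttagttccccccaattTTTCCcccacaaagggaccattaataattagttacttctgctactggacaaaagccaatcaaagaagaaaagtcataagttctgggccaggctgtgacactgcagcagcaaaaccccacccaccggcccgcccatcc

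Tnfrsf9, chr4:150927749-150927998: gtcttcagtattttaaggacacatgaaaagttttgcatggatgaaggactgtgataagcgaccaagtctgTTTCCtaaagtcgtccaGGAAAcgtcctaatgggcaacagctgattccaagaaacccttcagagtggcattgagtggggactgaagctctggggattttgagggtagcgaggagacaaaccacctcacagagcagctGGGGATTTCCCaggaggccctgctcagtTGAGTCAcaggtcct

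Tnfrsf4, chr4:156013445-156013694: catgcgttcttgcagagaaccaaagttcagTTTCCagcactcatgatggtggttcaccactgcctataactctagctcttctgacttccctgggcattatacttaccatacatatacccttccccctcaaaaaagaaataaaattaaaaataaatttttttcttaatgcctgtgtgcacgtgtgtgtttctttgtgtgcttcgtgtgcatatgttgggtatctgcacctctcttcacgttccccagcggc

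Tnfrsf18, chr4:156026072-156026321: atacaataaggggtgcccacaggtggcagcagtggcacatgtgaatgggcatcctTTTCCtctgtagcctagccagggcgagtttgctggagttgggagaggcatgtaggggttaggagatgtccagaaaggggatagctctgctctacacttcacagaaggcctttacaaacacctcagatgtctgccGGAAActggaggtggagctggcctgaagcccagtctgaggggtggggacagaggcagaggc

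The second Tnfrsf9 window held 1 AP-1 match, 15 to 9 bases before the start, an NF-kB match 43 to 33 bases before it that reads in 2 registers, and 3 NFAT cores, one of which lies inside the NF-kB match. The other windows held only NFAT cores, 2 in the first Tnfrsf9 window, 1 in Tnfrsf4 and 2 in Tnfrsf18. Over 32851 windows of this length in the reference, 6.75% held the AP-1 motif, 7.25% the NF-kB motif and 55.6% the NFAT core. These are letter matches only.

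Tnfrsf18 encodes GITR, which is also abundant on regulatory T cells. It read 9.20, 9.36 and 8.76 in WT resting Naïve and 10.95, 10.96 and 10.14 in WT resting Th2 cells, without overlap, and 9.91, 10.22 and 8.80 in stimulated Th2 cells. Tnfrsf18 was 1.58 (SE 0.34, adjusted p 0.00116) higher in WT resting Th2 than in resting Naïve cells and fell by 1.04 (adjusted p 0.0262) after PMA and ionomycin. In BAF180-deficient cells it read 9.31, 9.26 and 8.96 in resting Naïve, 11.39, 10.98 and 10.70 in resting Th2 and 10.13, 9.78 and 9.36 in stimulated Th2 cells, and none of these groups overlapped with the next. The differences there were 1.85 (adjusted p 0.000268) and -1.26 (adjusted p 0.00838).

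Replicate C was the lowest for Tnfrsf18 in 3 of 4 WT and 4 of 4 BAF180-deficient states, and below its group mean in 4 of 4 of each. In WT stimulated Naïve cells Tnfrsf18 was 0.52 higher than at rest, with no overlap of the arrays and an adjusted p of 0.235, which the replicate block brought to 0.0452. The WT fall after PMA and ionomycin was lost without resting Th2 replicate A (adjusted p 0.0996) or B (0.103) or stimulated Th2 replicate C (0.197), and that of BAF180-deficient cells without resting Th2 replicate A (0.0512). The second probe, ILMN_2419494, starts 1 base further along the transcript and shares 49 of 50 bases, so the pair is not independent. It rose by 0.88 in WT stimulated Naïve cells, with an adjusted p of 0.0373.

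Cd27 encodes the receptor for CD70, which supports the first division and survival of T cells. Its level was 10.65, 10.89 and 10.17 in WT resting Naïve cells and 9.37, 9.44 and 9.60 in stimulated Naïve cells, without overlap. WT resting Th2 cells lay between, at 9.67, 9.99 and 9.94, and stimulated Th2 cells at 10.58, 10.37 and 10.16. Cd27 fell by 1.10 (SE 0.21, adjusted p 0.000178) with anti-CD3 and anti-CD28, and differed by -0.70 between resting Th2 and resting Naïve cells (adjusted p 0.0113). The Th2 call was lost without resting Th2 replicate A (adjusted p 0.055) or resting Naïve replicate B (0.0699).

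In BAF180-deficient cells Cd27 read 10.93, 10.43 and 10.26 in resting Naïve, 8.77, 9.32 and 9.29 in stimulated Naïve, 9.79, 10.01 and 9.64 in resting Th2 and 10.72, 10.99 and 10.48 in stimulated Th2 cells. It fell by 1.41 (adjusted p 1.12e-05) in stimulated Naïve cells and differed by -0.73 (adjusted p 0.00908) between resting Th2 and resting Naïve cells, the latter call being lost without resting Naïve replicate A (0.0678). After PMA and ionomycin the direction was the opposite of that in Naïve cells. Cd27 rose by 0.92 (adjusted p 0.00195) in BAF180-deficient Th2 cells, and the WT difference was 0.50 (adjusted p 0.0758), with no overlap of the arrays in either genotype. The mean of both Cd27 probes gave 0.74 (adjusted p 0.00161) for WT Th2 cells. A second, dimmer Cd27 probe, ILMN_3052501, gave 0.65 (adjusted p 0.0156) for WT and 1.06 for BAF180-deficient cells in that comparison, but -0.44 (adjusted p 0.0774) and -0.31 (adjusted p 0.238) in the comparisons of BAF180-deficient stimulated Naïve and resting Th2 cells with resting Naïve cells.

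Cd28 encodes the main costimulatory receptor of Naïve cells. Its 24 values by the representative probe ILMN_2591361 lay between 9.74 and 11.42. In WT cells the means were 10.93 in resting Naïve, 10.78 in resting Th2, 10.39 in stimulated Naïve and 10.27 in stimulated Th2 cells, and only the middle neighbours in that order had arrays that did not overlap. In BAF180-deficient cells the order was resting Naïve (10.68), stimulated Th2 (10.54), resting Th2 (10.27) and stimulated Naïve cells (10.23). No state comparison of Cd28 passed the threshold in the fit without a block. The nearest was stimulated against resting Naïve WT cells, at -0.53 (SE 0.25, adjusted p 0.095), which passed without resting Naïve replicate C (0.0216) and under the Z-score normalization of the study's methods (0.0323). Without resting Naïve KO replicate C the differences of BAF180-deficient stimulated Naïve (-0.73, adjusted p 0.0278) and resting Th2 cells (-0.69, 0.0437) from resting Naïve cells passed, and without stimulated Th2 WT replicate C that of WT stimulated Th2 cells did (-0.75, 0.0418).

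A pair of further Cd28 probes near the start of the transcript, at bases 262 and 268, share 44 of their 50 bases. They are printed to show that they read almost the same stretch, with the shared bases in capitals.

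ILMN_2589865: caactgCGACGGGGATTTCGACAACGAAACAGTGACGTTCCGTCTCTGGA

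ILMN_2589871: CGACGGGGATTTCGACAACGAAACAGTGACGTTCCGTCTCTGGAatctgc

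These probes were 0.62 and 0.63 higher in WT resting Th2 than in resting Naïve cells and 0.68 and 0.68 higher in BAF180-deficient cells, with adjusted p between 0.0718 and 0.104. The representative probe, which starts at base 3783 of the same transcript, gave -0.15 and -0.41 in the same comparisons. None of the 3 passed with all arrays, and the probes differed in sign, so no direction is given for Cd28 between resting Naïve and resting Th2 cells.

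Icos encodes the inducible costimulator, known for its part in follicular and Th2 responses. By its representative probe, ILMN_2906430, it read 9.31, 9.33 and 8.54 in WT resting Naïve cells, 8.05, 7.58 and 8.22 in stimulated Naïve, 10.10, 9.75 and 9.80 in resting Th2 and 9.24, 9.55 and 9.56 in stimulated Th2 cells. The resting Th2 arrays were above all others and the stimulated Naïve arrays below all others. The probe fell by 1.11 (SE 0.35, adjusted p 0.0145) in WT stimulated Naïve cells, a call that was lost without resting Naïve replicate A or B or stimulated Naïve replicate B (adjusted p 0.0573, 0.0589 and 0.0706). In BAF180-deficient cells the values were 10.06, 9.82 and 8.47 in resting Naïve, 9.23, 9.01 and 7.97 in stimulated Naïve, 10.53, 10.14 and 10.02 in resting Th2 and 10.04, 9.55 and 9.22 in stimulated Th2 cells, with replicate C the lowest each time. The stimulated Naïve difference there was -0.71 (adjusted p 0.117), and without resting Naïve replicate C it was -1.20 (0.00499). Markers of regulatory T cells, which carry much ICOS and GITR, also differed between these states. The 8 genes of that list summed to an intensity of 1620 to 1900 in WT resting Naïve, 974 to 1010 in stimulated Naïve and 637 to 985 in resting Th2 cells, with 5 called lower and 1 higher in stimulated Naïve and 6 lower and 1 higher in resting Th2 against resting Naïve WT cells. Their part in the Icos, Tnfrsf18 and Cd27 values was not tested.

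The second Icos probe, ILMN_1221516, which lies 5' of it in the same transcript, gave another picture. It read 6.76, 5.86 and 5.67 in WT resting Naïve, 6.09, 6.69 and 6.37 in stimulated Naïve and 8.19, 8.14 and 8.04 in resting Th2 cells. Its difference between stimulated and resting Naïve WT cells was 0.28 (adjusted p 0.438), and the mean of both probes gave -0.41 (adjusted p 0.199), so the fall of Icos in stimulated Naïve cells rests on 1 probe. Between resting Th2 and resting Naïve cells this probe rose by 2.02 (adjusted p 7.84e-06) in WT and 1.76 (adjusted p 4.22e-05) in BAF180-deficient cells. The representative probe was 0.82 and 0.78 higher, with adjusted p of 0.0795 and 0.0944, with the replicate block of 0.0328 and 0.0414, and in BAF180-deficient cells without resting Naïve replicate A of 0.034. The mean of both probes was 1.42 (adjusted p 0.000185) higher in WT and 1.27 (adjusted p 0.000567) higher in BAF180-deficient cells. Both probes thus placed Icos higher in resting Th2 than in resting Naïve cells, by different amounts.

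**Figure D4:**
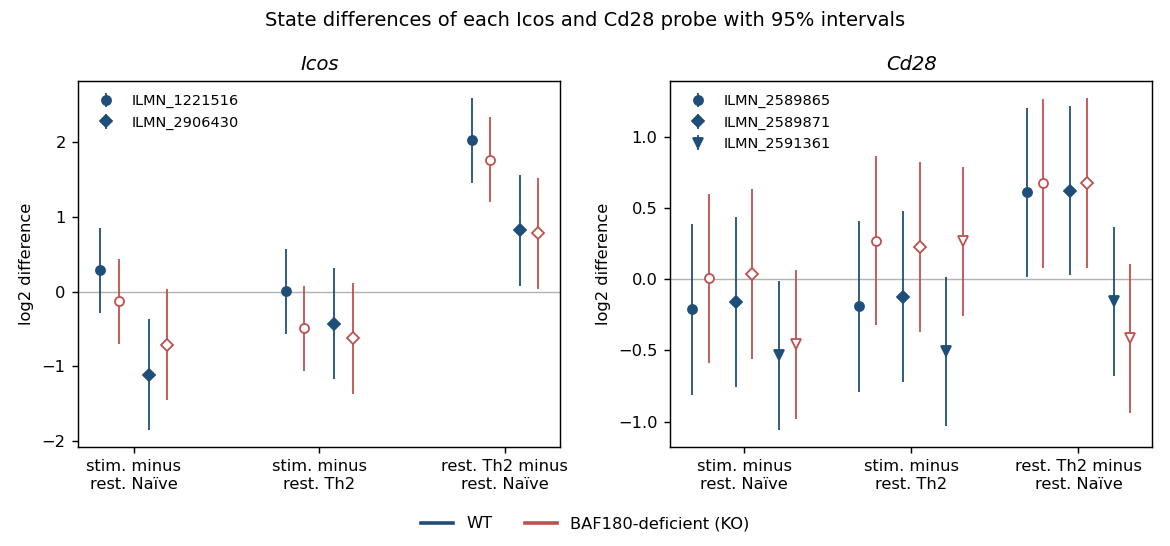
Log2 differences (vertical axes) of each Icos probe (left) and each Cd28 probe (right) between cell states (horizontal axes), with 95% intervals from limma. Filled blue symbols are WT, open red symbols BAF180-deficient (KO) cells, and the shape gives the probe. In the comparison of resting Th2 with resting Naïve cells the Icos probes lie at 2.02 and 0.82 in WT cells, and the Cd28 probes lie on both sides of 0.

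Cd226 encodes DNAM-1, which binds CD155 (Pvr) and CD112 (Nectin2). It read 6.77, 7.34 and 7.28 in WT resting Naïve cells, 5.99, 5.63 and 5.24 in stimulated Naïve, 6.17, 6.25 and 5.71 in resting Th2 and 4.56, 5.26 and 5.21 in stimulated Th2 cells. The resting Naïve arrays were above all others in both genotypes. Cd226 fell by 1.51 (SE 0.24, adjusted p 3.87e-05) in stimulated Naïve cells and by 1.03 (adjusted p 0.00292) in stimulated Th2 cells, and differed by -1.09 (adjusted p 0.00168) between resting Th2 and resting Naïve cells.

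In BAF180-deficient Naïve cells Cd226 read 7.20, 6.69 and 7.25 at rest and 5.92, 5.53 and 5.60 after stimulation. The Th2 cells gave 6.31, 6.48 and 5.76 at rest and 5.37, 5.05 and 4.93 after PMA and ionomycin. The differences, in the order given for WT cells, were -1.36, -1.07 and -0.86, with adjusted p of 0.000124, 0.00252 and 0.00931, and the last was lost without resting Th2 replicate C (0.0672). The other detected Cd226 probe, ILMN_3071525, was called in the same direction in all 6 comparisons. It was detected on 0 of the 3 BAF180-deficient stimulated Th2 arrays, which were therefore at least 1.89-fold lower than the resting Th2 arrays. The sum of NK markers, from cells that also carry CD226, was highest in resting Naïve cells too: the 2 detected of 4 listed summed to an intensity of 91.5 to 301 there and to 36.7 to 70.6 elsewhere. Only 1 of these 2 was called lower in stimulated Naïve and in resting Th2 than in resting Naïve cells, in each genotype. The other was not called, and in BAF180-deficient cells it was higher in both comparisons. The part of the NK markers in the result, and that of the myeloid markers given above, was not tested.

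Cd2 encodes the receptor for CD48. In WT cells it read 10.76, 10.65 and 10.34 at rest and 9.96, 9.84 and 10.13 after stimulation of Naïve cells, without overlap, and 10.24 to 11.14 in Th2 cells. Cd2 fell by 0.60 (SE 0.20, adjusted p 0.0164) in WT stimulated Naïve cells, which was lost without resting Naïve replicate A (0.0709) or B (0.0501) or stimulated Naïve replicate B (0.0638). In BAF180-deficient cells that difference was -0.31 (adjusted p 0.219). Cd2 was 0.41 higher in BAF180-deficient resting Th2 than resting Naïve cells, with no overlap and an adjusted p of 0.116, and of 0.0408 with the replicate block.

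The question of the study, whether BAF180 loss alters expression in each state, was put to the same probes. The 4 criteria of the study's methods are a Z-ratio beyond 1.5 in size, FDR under 0.3, p under 0.05 and positive signal. They were applied with p and FDR from limma and a Z-ratio of log2 differences, without a separate signal filter. In this form 0 of 8 members met them in each state. The study's own calls, made from Z-scores, were not rerun, so this count does not say which members the study called. The share of all probes that met them here was 0.681% at rest and 0.112% after stimulation of Naïve cells, and 0.0842% and 0.0913% for Th2 cells. All alternatives run gave 0 as well. At an unadjusted p below 0.05 there was 1 representative probe, that of Icos in stimulated Naïve cells, and 0 in the other 3 states. In the same order of states the medians of the members were -0.17, -0.04, 0.04 and 0.13, beside medians over all probes of -0.001 to 0.002. The 95% intervals reached 0.41 to either side of the estimate for Cd2, 0.43 for Cd27, 0.51 for Cd226, 0.53 for Cd28, 0.71 for Tnfrsf18, 0.74 for Icos, 0.92 for Tnfrsf9 and 1.60 for Tnfrsf4, so that smaller differences than these could not be told from 0. These intervals are not adjusted for the number of probes, and a larger difference need not meet the 4 criteria.

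**Figure D5:**
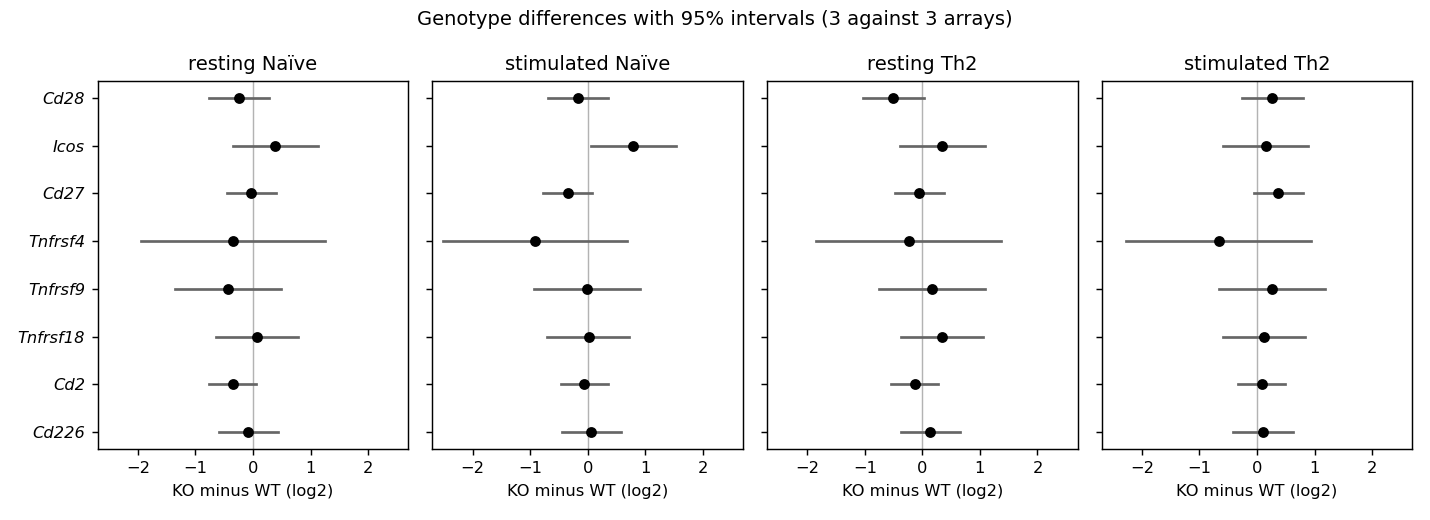
Log2 difference between BAF180-deficient and WT cells (KO minus WT, horizontal axes) of each receptor gene (vertical axis) in the 4 cell states, with 95% intervals from limma, 3 against 3 arrays. Apart from Icos in stimulated Naïve cells (0.79, interval 0.05 to 1.53), every interval includes 0. Icos lies to the right of 0 in all 4 panels and Tnfrsf4 to the left.

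Icos was higher in BAF180-deficient cells in 4 of 4 states, by 0.39 and 0.79 in resting and stimulated Naïve and by 0.35 and 0.15 in resting and stimulated Th2 cells (SE 0.35). For stimulated Naïve cells this had an adjusted p of 1 in limma (0.0376 unadjusted), and the arrays of the genotypes overlapped in every state. Its second probe was higher in 4 of 4 states too, by 0.79, 0.38, 0.53 and 0.04. In resting Naïve cells its adjusted p was 0.523 in limma (0.00867 unadjusted), and in resting Th2 cells its arrays did not overlap between genotypes (8.19, 8.14 and 8.04 in WT, 8.87, 8.52 and 8.57 in BAF180-deficient cells, adjusted p 1). The probes share arrays and are not independent. The 4 states may not be independent either: by the representative probe, BAF180-deficient replicate A lay above and replicate C below its group mean in 4 of 4.

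By its representative probe Tnfrsf18 was higher in 4 of 4 states as well, by 0.01 to 0.34 (SE 0.34). The 0.01 was in stimulated Naïve cells, where its second probe gave -0.02. That second probe gave 0.44 in resting Naïve, 0.47 in resting Th2 and 0.07 in stimulated Th2 cells. Tnfrsf4 was lower in 4 of 4 states, with differences of -0.91 to -0.24 (SE 0.77). None of these Tnfrsf18 and Tnfrsf4 differences had a limma p below 0.05. Deviations by letter recurred over the states for both genes, so the 4 states may not be independent for them. The 8 markers of regulatory T cells summed to an intensity of 1620 to 1900 in WT and 2050 to 2600 in BAF180-deficient resting Naïve cells, and to 974 to 1010 and 1020 to 1340 in stimulated Naïve cells, without overlap in either state. In resting Th2 cells the sums were 637 to 985 and 879 to 1120, and in stimulated Th2 cells 773 to 1410 and 1030 to 1300, both overlapping. Of the 8 markers 6, 8, 6 and 4 were higher in BAF180-deficient cells, in that order of states. None of the 8 met the 4 criteria, and 2 of them (Ctla4 and Il2ra) are also in the lists of counter-receptors and target genes. Foxp3 was 0.44 higher in BAF180-deficient resting Naïve cells (adjusted p 0.862) and 1.00 higher in resting Th2 cells (p 0.00123, adjusted p 0.465), where its arrays did not overlap. Of the 6 tested memory T cell markers 6 and 3 were higher in BAF180-deficient resting and stimulated Naïve cells, with medians of 0.33 and 0.02. In resting and stimulated Th2 cells 2 and 2 were higher, with medians of -0.07 and -0.13. By the 4 criteria 1 of the 6, S100a6, was called, 1.09 higher in BAF180-deficient resting Naïve cells, where 0.681% of all probes were. The part of the regulatory and memory T cell markers in the Icos and Tnfrsf18 values was not tested.

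In the resting Th2 comparison Cd28 read 10.76, 10.62 and 10.94 in WT and 10.20, 10.37 and 10.23 in BAF180-deficient cells. These did not overlap, and the difference was -0.51 (SE 0.25, p 0.0586, adjusted p 1). Both 5' probes of Cd28 gave -0.51 and did not overlap either. In Naïve cells the representative and both 5' probes were lower too, at -0.25, -0.57 and -0.56 at rest. After stimulation of Naïve cells they gave -0.16, -0.36 and -0.36. At rest the 5' probes had an unadjusted limma p of 0.0582 and 0.0639, and in Naïve cells the arrays of all these probes overlapped. In stimulated Th2 cells the sign of the representative probe turned, with a difference of 0.27 (10.31, 9.74 and 10.76 against 10.43, 10.54 and 10.64). The WT arrays there spread around all BAF180-deficient ones. The 5' probes gave -0.05 and -0.15 in stimulated Th2 cells and so were lower in every state, but they share 44 of their 50 bases. Cd27 in stimulated Naïve cells was the other member without overlap, at 9.37 to 9.60 in WT and 8.77 to 9.32 in BAF180-deficient cells, a difference of -0.34 (SE 0.21, p 0.109, adjusted p 1). The second Cd27 probe differed by -0.43 in resting Naïve cells (p 0.0408, adjusted p 0.704), where the representative one gave -0.03. Over all probes the arrays of the genotypes did not overlap for 7.99% in resting Naïve, 6.46% in stimulated Naïve, 10.1% in resting Th2 and 7.31% in stimulated Th2 cells, beside 0, 1, 1 and 0 of the 8 members.

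Tnfrsf9, Cd2 and Cd226 differed by at most 0.44 between genotypes. Tnfrsf9 was -0.44 in resting Naïve cells, near its detection limit, and -0.02 to 0.26 in the others. The second Tnfrsf9 probe lay between -0.17 and 0.18, and its sign was the opposite in resting Naïve (0.03) and stimulated Th2 cells (-0.09). Cd2 gave -0.35 in resting Naïve cells (SE 0.20, p 0.09, adjusted p 0.831), and Cd226 lay between -0.08 and 0.14. The second Cd226 probe gave -0.29 in resting Naïve cells, and its sign was the opposite in stimulated Naïve (-0.02) and stimulated Th2 cells (-0.13).

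Whether BAF180 loss altered the response of a receptor to stimulation or Th2 culture was tested as the difference of the differences. None of the 8 genes was called in any of the 3 interactions at a limma adjusted p below 0.05, under the alternatives as well, where 0.00702%, 0% and 0.00702% of all probes were for stimulated Naïve, stimulated Th2 and resting Th2 cells. At an unadjusted p below 0.05 there was 1, Cd28 on PMA and ionomycin, for which the change was -0.51 in WT and 0.27 in BAF180-deficient Th2 cells. This interaction was 0.77 (SE 0.36, p 0.0422, adjusted p 1). It rests on the representative probe, since the 5' Cd28 probes gave 0.46 and 0.35, with a limma p of 0.267 and 0.395. By those probes the change was -0.19 and -0.12 in WT and 0.27 and 0.23 in BAF180-deficient Th2 cells. The calls that were made in WT cells alone, such as Icos and Cd2 in stimulated Naïve cells, therefore do not show a difference between the genotypes: the interactions were 0.40 (interval -0.64 to 1.44) for Icos and 0.29 (-0.29 to 0.87) for Cd2. The second Icos probe had the opposite sign there, at -0.41 (-1.22 to 0.39).

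The ligands are mainly products of antigen-presenting cells, but activated T cells make some of them. Of 10 ligand genes 8 were tested, and Icosl was not analysed here. In WT cells 2 were called higher and 1 lower with anti-CD3 and anti-CD28, 2 higher and 1 lower with PMA and ionomycin, and 1 higher and 3 lower in resting Th2 against resting Naïve cells. Of all probes 23.6% were called higher and 20% lower in the first comparison, 13% and 14.3% in the second and 18.4% and 16% in the third, so that 2 of 8 higher in the first is near the share of all probes. Cd70, the ligand of CD27, was detected on no resting Th2 array and reached a mean of 6.85 in WT stimulated Th2 cells, at least 4.74-fold higher, and Tnfsf9, the ligand of 4-1BB, rose there by 1.48 (SE 0.18, adjusted p 2.85e-06). Receptor and ligand transcripts of both the CD27 and the 4-1BB pair were detected in stimulated Th2 cells, while Tnfsf4, the ligand of OX40, was detected on 1 of the 24 arrays.

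Cd86, a ligand of CD28, was 8.72, 8.35 and 9.08 in WT resting Naïve cells and differed from these by -3.40 (SE 0.29, adjusted p 1.8e-08) in resting Th2 cells and by -0.96 (adjusted p 0.0112) in stimulated Naïve cells. Cd86 is mainly made by myeloid and B cells. The 5 detected myeloid markers fell in both comparisons (5 of 5 in each genotype), and the 5 detected of 7 B cell markers summed to 351 to 966 there against 100 to 508 elsewhere. Their part in the Cd86 values was not tested. Cd48, the ligand of CD2, was undetected in WT resting Naïve cells and at least 2.03-fold higher in WT resting Th2 and 1.16-fold higher in WT stimulated Naïve cells. In BAF180-deficient resting Naïve cells it was detected on 2 of 3 arrays, at 4.38, 5.07 and 5.37. How well this dim probe reads Cd48 was not tested.

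Of 20 adaptor and kinase genes of these receptors 18 were tested. In stimulated against resting Naïve WT cells 13 were called lower and 2 higher, with a list median of -0.88. In stimulated against resting Th2 WT cells 7 were called lower and 4 higher (-0.36). In resting Th2 against resting Naïve WT cells 6 were called lower and 1 higher (-0.35). Over all probes the shares called lower and higher were 20% and 23.6%, 14.3% and 13%, and 16% and 18.4% in the same order, with medians of 0.01, -0.002 and 0.03. Pik3r1, the regulatory subunit of phosphoinositide 3-kinase, fell by 2.40 and 1.92 (SE 0.18) in the first and second of these. Siva1, a protein that binds the tail of CD27, rose by 2.10 in stimulated Naïve cells and was 1.74 (SE 0.23) higher in resting Th2 cells. Prkcq, the kinase PKC-theta of the CD28 pathway, fell by 1.75 after PMA and ionomycin, and Map3k14, the NF-kB inducing kinase NIK, differed by -1.55 between resting Th2 and resting Naïve cells.

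Between genotypes 1 of the 18 tested genes was called, in resting Naïve cells, where 0.681% of all probes met the 4 criteria. Traf5, an adaptor of OX40 and CD27, read 6.05, 6.03 and 6.05 in WT and 5.14, 5.46 and 5.38 in BAF180-deficient resting Naïve cells. The groups did not overlap, as for 7.99% of all probes in that state, and the difference was -0.72 (SE 0.16, adjusted p 0.0978). The Traf5 probe was dimmer in the other states, at means of 4.59 to 5.22, and was not called between genotypes there. No ligand, counter-receptor, other TNF receptor or target gene met the criteria in any state.

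Among the counter-receptors 3 of 5 were tested. Btla, an inhibitory receptor for HVEM, rose by 0.72 in WT stimulated Naïve and by 0.88 in WT stimulated Th2 cells (SE 0.17), and differed by -1.27 between resting Th2 and resting Naïve cells. Of 5 other TNF family genes with a costimulatory role, Tnfrsf25 (DR3) fell by 1.21 (SE 0.24) in WT stimulated Naïve cells. Cd40lg, the ligand through which CD4 cells help B cells, was undetected in WT resting Th2 cells and at least 2.94-fold higher after PMA and ionomycin. Tnfrsf8 (CD30) was undetected in WT resting Naïve cells (mean 4.28) and called higher in stimulated Naïve (4.71, adjusted p 0.0189) and resting Th2 cells (4.81, adjusted p 0.00668), so near background that no fold is given.

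Of 9 genes known as targets of costimulation 8 were tested, and Il2 was not analysed here. In stimulated against resting Naïve WT cells 6 were called higher and 1 lower, beside 23.6% and 20% of all probes. Il2ra, the alpha chain of the IL-2 receptor, rose by 3.04 (SE 0.20) from 5.32, 5.49 and 5.21 to 8.49, 8.10 and 8.54, and Bcl2l1, which encodes the survival protein BCL-xL, by 2.10 (SE 0.27). With PMA and ionomycin 4 were called higher and 2 lower in WT cells, beside 13% and 14.3% of all probes. Bcl2l1 rose by 1.88 and Birc5 (survivin) fell by 2.04 (SE 0.35). In resting Th2 against resting Naïve WT cells 3 were called higher and 0 lower, beside 18.4% and 16% of all probes, with Il2ra at 2.87 and Birc5 at 2.80.

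Across the 24 arrays the members fell into loose groups, given here as a description of points that share cell states, letters and normalization. Tnfrsf4 and Tnfrsf9 ran together (r = 0.811), Cd226 ran opposite to both (r = -0.783 with Tnfrsf4 and -0.877 with Tnfrsf9), and Icos ran with Cd2 (r = 0.721). Cd28 had no r beyond 0.427 in size with another member. Among 7207 other genes detected on at least 12 arrays, the most alike by Pearson r over the 24 arrays were Calu (0.968) and Gm10052 (0.936) for Tnfrsf9, and Smarca2 (0.953) and Napg (0.951) for Cd226.

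For Cd27 the most alike were Btg1 (0.929) and Dnajb9 (0.918), for Tnfrsf4 Mrps2 (0.899) and Nupl1 (0.897), and for Tnfrsf18 Phlda3 (0.893) and Kif3a (0.889). For Icos they were Thy1 (0.858) and Klk8 (0.857), for Cd2 Pparg (0.843) and Glmp (0.81), and for Cd28 Rap2c (0.793) and Kbtbd2 (0.77). Cd28 thus had the lowest best match and Tnfrsf9 the highest.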

How the data were processed

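Biotin-labelled cRNA, made by the authors from total RNA with an oligo-dT primer, was hybridized to 24 Illumina MouseRef-8 v2 arrays. The authors deposited a non-normalized mean bead intensity and a detection p-value per probe (GenomeStudio 1.6.0 per the processing notes), with a median intensity per array of 40.6 to 48.9. The number of arrays limits the precision.

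Intensities were normalized with neqc (offset 16) in limma 3.58.1 under R 4.3.3. A probe entered the fit if its detection p was 0.02 or less on 1 array or more. A model of 8 group means was fitted with lmFit and eBayes (16 residual degrees of freedom, 20.3 after moderation), and p-values were adjusted by Benjamini-Hochberg over 14246 probes. Genotype calls used the 4 criteria of the study's methods, with p and FDR from limma. The Z-ratio was the log2 difference over the SD of the differences of all tested probes, and the signal criterion was not applied separately. For a probe undetected on all 3 arrays of a group, the fold is a bound against the lowest detected signal of each array. Functions were tested on simulated data.

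The members and lists were chosen with earlier results of these data known. Named genes are the members, per pathway list the 2 called genes with the largest WT difference in each state comparison and any called between genotypes, the 2 genes most alike to each member, Pbrm1 and Foxp3. S100a6, Lyz2, Cd14 and Tnfsf4 were added after their values were seen. The study states 3 pairs. Deviations of same-lettered WT and BAF180-deficient arrays correlated at 0.301 (A), 0.136 (B) and 0.516 (C) over the 4 states (-0.00263 to 0.662 within states), so the letters were read as pairs. The main fit did not use this pairing, and the block by letter is among the alternatives. Whether a letter marks the same mice in all states is not stated. Alternatives changed the background correction, normalization, filter, arrays, probe summary, call rule and block, or left out 1 array.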

Additional observations from a re-analysis of the deposited data

How the results depend on the processing

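The genotype counts of 0 and the interaction counts of 0 were obtained under every alternative run, and no member difference between states that was called turned its sign. In stimulated against resting Naïve cells the number of members called was 6 in WT, 3 with the 4 criteria as the call rule, and 3 to 7 without single arrays, the lowest without resting Naïve WT replicate A or stimulated Naïve WT replicate B. It was 3 in BAF180-deficient cells, 5 with the block of letters within genotype (added after seeing the data), and 3 to 6 without single arrays, the highest without resting Naïve KO replicate C. In stimulated against resting Th2 WT cells it was 4, 2 without the detection filter (Tnfrsf4 adjusted p 0.0865, Tnfrsf18 0.0645), 2 with the 4 criteria, and 2 to 4 without single arrays, the lowest without resting Th2 WT replicate A. Without single arrays the count of 4 for BAF180-deficient stimulated Th2 cells ranged from 3 to 5, and the counts of 4 for resting Th2 against resting Naïve cells from 3 to 4 in WT and from 3 to 6 in BAF180-deficient cells. Over the other settings these last counts ranged from 3 to 6 and from 3 to 7.

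With the replicate letter as a block, as the pairing check allowed, 7 members were called between resting Th2 and resting Naïve BAF180-deficient cells in place of 4, and 6 in WT cells. The block made 8 calls that the unblocked fit lacked, those of Tnfrsf4, Icos, Tnfrsf18 and Cd2 given above, lost none, and changed no other call of a member. Of single genes, Tnfrsf4 in WT stimulated Naïve cells also lost its call without the detection filter (adjusted p 0.0641) and when only the arrays compared were fitted (0.0766), as in the latter did Tnfrsf18 in WT stimulated Th2 cells (0.103) and Cd27 in WT resting Th2 cells (0.0513). Cd226 in BAF180-deficient resting Th2 cells lost it under the Z-score normalization (0.0566). Fitting only the arrays compared also gave a call to Cd27 in WT stimulated Th2 cells (adjusted p 0.049) and to Icos in WT resting Th2 cells (0.0482). The cause of these shifts was not tested. Depth on arrays is signal over background: Tnfrsf9 in resting Naïve cells and Cd226 in stimulated Th2 cells were near the detection limit, so their levels there are the least certain.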
